A study of Caenorhabditis elegans with 10 samples.

Results

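The genes grd-5, grl-5 and grl-7, which encode hedgehog-related secreted proteins, and the genes ptr-6 and ptr-18, which encode patched-related membrane proteins, were followed on 10 arrays of whole Caenorhabditis elegans. They are 5 of the 145 genes that the authors' deposited lists of changed transcripts allow to be named, and the arrays held 22548 probe sets once controls were left out. All 5 stood on the authors' list of transcripts lowered in nep-1 mutant larvae and on none of the adult lists. That list held probe sets with a decreased call in at least 3 of 4 mutant and wild-type larval array pairs and with present calls on both larval wild-type arrays. The larval genotype difference is therefore what chose these genes, and it is described below without a test. A gene with several probe sets is given by the one with the highest mean level.

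Caenorhabditis elegans has no canonical Hedgehog ligand and no Smoothened, but it carries large families of hedgehog-related secreted proteins (warthog, groundhog, ground-like and quahog) and of patched-related proteins, multipass membrane proteins with a sterol-sensing domain. Many of them are made by the epidermis and other epithelia that secrete cuticle, are transcribed in waves that follow the moulting cycle of the larva, and are needed for moulting and growth. The product of nep-1 is a neprilysin, a membrane metallopeptidase that degrades small peptides outside the cell.

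The groups were adult nep-1 mutants (3 arrays), adult wild type (3 arrays), nep-1 mutant larvae of stage L3 (2 arrays) and wild-type L3 larvae (2 arrays). The mutant carried a nep-1 allele obtained by EMS mutagenesis, and the wild type was the Bristol variety. All worms were grown at 20 °C on agar plates with Escherichia coli OP50, and the titles call the replicates biological. The description of larval mutant 1 carries a different number from the one that adult mutants 2 and 3 share, and what these numbers mean is not stated. Larval mutant 2 and adult mutant 1 carry no number. Whether the mutant arrays came from a single strain is thus not known, which bears on comparisons of mutants across stages. The sex, the exact age and the hours within L3 are not given in the sources used here.

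The array descriptions also pair mutant and wild-type arrays by a shared naming style. In adults, mutant 1 and wild-type 3 share bare names without a letter, mutant 2 and wild-type 1 share the letter A, and mutant 3 and wild-type 2 share the letter B. The larval pairs followed the replicate numbers. The bare-named adult arrays stood apart from the other adults, with mean correlations to the larval arrays of 0.891 on the mutant and 0.903 on the wild-type array, against 0.830 to 0.837 on the 4 arrays with letters. Present calls covered between 49.6% and 61.8% of probe sets per array. None of the 14 yolk, oocyte and sperm genes listed as adult markers could be named, so the stage labels could not be checked with them. The nep-1 probe set (188537_s_at) had log2 levels of 5.05, 5.10 and 5.42 on adult mutant arrays, against 6.01, 6.85 and 7.32 on adult wild-type arrays. In larvae it had 5.20 and 4.85 on mutant arrays, where it was called absent, against 8.19 and 9.17 on wild-type arrays. It was lower on every mutant array of a stage than on every wild-type array of that stage, and where the allele's lesion lies relative to the probe set was not analysed here.

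Among the secreted proteins, grd-5 encodes a groundhog protein. Its probe set (180979_at) had log2 levels of 7.89, 9.79 and 10.12 on adult mutant arrays 1, 2 and 3, against 10.24, 9.79 and 10.66 on adult wild-type arrays 1, 2 and 3. In larvae it had 8.54 and 10.04 on mutant arrays 1 and 2, against 9.44 and 11.18 on wild-type arrays 1 and 2. It was the one gene of the 5 called present on all 10 arrays, its lowest level was on the bare-named adult mutant, and both stages and both genotypes overlapped. Group means were 9.26 ± 1.20 in adult mutants and 10.23 ± 0.43 in adult wild type (SD, n = 3 each), and 9.29 ± 1.06 in mutant larvae and 10.31 ± 1.23 in wild-type larvae (SD, n = 2 each). In the order wild-type larvae, adult wild type, mutant larvae, adult mutants, each neighbouring pair of groups overlapped.

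The gene grl-5 encodes a ground-like protein. Its probe set (176327_s_at) had log2 levels of 8.07, 7.08 and 6.50 on adult mutant arrays 1, 2 and 3, against 6.47, 6.07 and 9.95 on adult wild-type arrays 1, 2 and 3. In larvae it had 8.87 and 10.57 on mutant arrays, against 10.25 and 11.32 on wild-type arrays. The scaled signal of the deposited comparison tables spanned 909.2 on larval mutant 1 to 3838 on larval wild-type 2 in larvae, and 23.5 on adult wild-type 2 to 1163.7 on adult wild-type 3 in adults. grl-5 was called present on all 4 larval arrays, but absent on adult mutant 3 and on both letter-named adult wild-type arrays, and the bare-named adult wild-type array lay within the larval range. Group means were 7.22 ± 0.80 in adult mutants, 7.50 ± 2.13 in adult wild type, 9.72 ± 1.21 in mutant larvae and 10.79 ± 0.75 in wild-type larvae.

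The gene grl-7 encodes another ground-like protein, which has been described in the extracellular matrix of the epidermis. Its probe set (173567_s_at) had log2 levels of 8.41, 7.17 and 6.43 on adult mutant arrays 1, 2 and 3, against 6.63, 6.12 and 10.12 on adult wild-type arrays 1, 2 and 3. In larvae it had 9.62 and 11.22 on mutant arrays, against 10.62 and 11.38 on wild-type arrays. The same 3 adult arrays as for grl-5 were called absent, with scaled signals of 3.5 on adult mutant 3 and of 24 and 24.6 on the letter-named wild-type arrays, and again the bare-named adult wild-type array lay within the larval range. Group means were 7.33 ± 1.004 in adult mutants, 7.62 ± 2.17 in adult wild type, 10.42 ± 1.13 in mutant larvae and 10.998 ± 0.54 in wild-type larvae. For grl-5 and for grl-7 the order was wild-type larvae, mutant larvae, adult wild type, adult mutants, and each neighbouring pair of groups overlapped.

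Of the patched-related genes, ptr-6 had a pair of probe sets. The one with the higher mean (188240_at) had log2 levels of 6.52, 4.99 and 4.44 on adult mutant arrays 1, 2 and 3, against 4.33, 4.95 and 6.31 on adult wild-type arrays 1, 2 and 3. In larvae it had 4.49 and 6.03 on mutant arrays, against 5.83 and 7.47 on wild-type arrays. It was called absent on all 4 letter-named adult arrays and on larval mutant 1, so that the bare-named pair gave the only present calls in adults. The other probe set (174995_s_at) had 6.36, 3.98 and 3.798 on adult mutant arrays, against 3.64, 4.03 and 5.81 on adult wild-type arrays, and 4.55 and 5.32 on larval mutant arrays, against 5.85 and 7.40 on larval wild-type arrays. It carried absent calls on the same 5 arrays. Group means of the first probe set were 5.32 ± 1.08 in adult mutants, 5.20 ± 1.01 in adult wild type, 5.26 ± 1.09 in mutant larvae and 6.65 ± 1.16 in wild-type larvae, and wild-type larvae, adult mutants, mutant larvae and adult wild type overlapped in that order.

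In newly hatched larvae, ptr-18 has been tied to the removal of the GRL-7 protein from the extracellular space. Its probe set (188188_s_at) had log2 levels of 7.24, 5.46 and 5.42 on adult mutant arrays 1, 2 and 3, against 4.64, 4.89 and 8.49 on adult wild-type arrays 1, 2 and 3. In larvae it had 6.92 and 8.63 on mutant arrays, against 8.17 and 9.48 on wild-type arrays. It was called absent on both letter-named adult wild-type arrays and present on the other 8 arrays. Group means were 6.04 ± 1.04 in adult mutants, 6.01 ± 2.16 in adult wild type, 7.78 ± 1.21 in mutant larvae and 8.82 ± 0.92 in wild-type larvae, and in the order wild-type larvae, mutant larvae, adult mutants, adult wild type each neighbouring pair overlapped. Whole worms were profiled, so fewer cells of a type and less RNA per cell cannot be told apart for any of these genes.

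**Figure D1:**
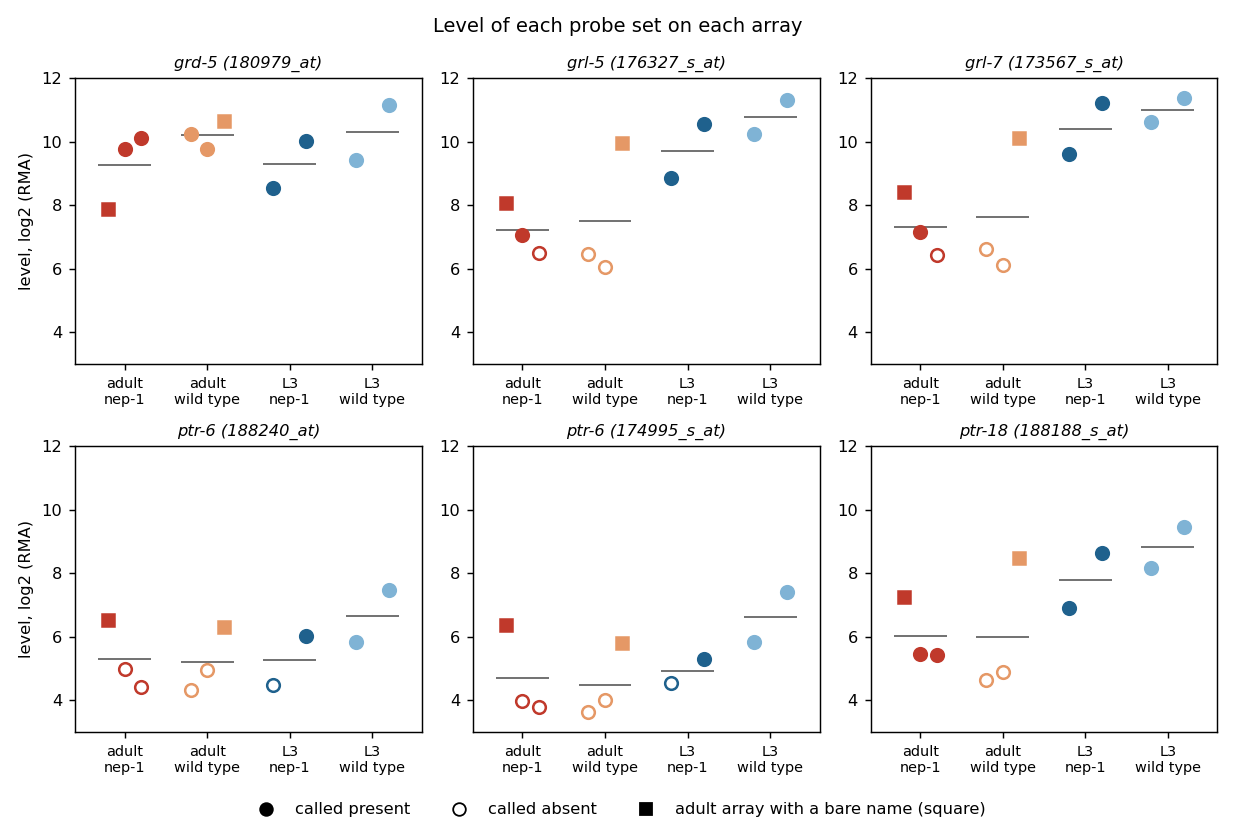
Log2 level (RMA) of the 6 probe sets on each of the 10 arrays, by group, with adult groups left of larval groups. Filled symbols were called present, open symbols absent, squares are the bare-named adult arrays and horizontal lines are group means. For grl-5, grl-7, ptr-6 and ptr-18 both squares sit above all 4 other adult arrays.

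In larvae, the contrast that chose them, the 5 genes were lower in the mutant on average and within both pairs, but the genotypes overlapped on the probe set chosen for each gene. The mutant minus wild-type difference was -1.02 ± 0.85 for grd-5, -1.07 ± 1.21 for grl-5, -0.58 ± 1.24 for grl-7, -1.39 ± 0.91 for ptr-6 and -1.05 ± 1.28 for ptr-18 (log2 ± SE from limma, n = 2 each). Their median was -1.05, beside -0.04 over all probe sets, as the choice of the genes fixes.

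Within larval pair 1, mutant minus wild type was -0.90 for grd-5, -1.39 for grl-5, -0.995 for grl-7, -1.34 for ptr-6 and -1.25 for ptr-18. Within larval pair 2 it was -1.13 for grd-5, -0.75 for grl-5, -0.16 for grl-7, -1.44 for ptr-6 and -0.84 for ptr-18. The smallest of these 10 differences was that of grl-7 in pair 2, and without larval mutant 1 the larval difference of grl-7 was 0.22. The crossed pairs moved apart in both directions. Larval mutant 1 lay below wild-type 2, with differences from -2.98 (ptr-6) to -1.75 (grl-7). Larval mutant 2 lay above wild-type 1 by 0.60 for grd-5, 0.32 for grl-5, 0.60 for grl-7, 0.20 for ptr-6 and 0.46 for ptr-18.

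The authors' deposited table gave each of the 5 genes a decreased call in 3 of 4 larval pairs, the least the list asked for, and called mutant 2 against wild-type 1 not changed for all 5. nep-1 was decreased in 4 of 4. The authors' log2 ratios of mutant 1 to wild-type 2 in that deposited table ranged from -2.5 for grd-5 to -1.6 for grl-7, and those of mutant 2 to wild-type 1 from 0.0 for ptr-6 to 0.7 for grl-7 and ptr-18. Over all probe sets 0.63% met the list's rule. Both larval mutant arrays lay below both larval wild-type arrays for 0 of the 5 genes, where 12.6% of all probe sets did. The other ptr-6 probe set did so, with a difference of -1.69 ± 0.995, and for it larval mutant 2 lay 0.54 below wild-type 1 (a difference of -0.54).

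In larvae, the replicates of 1 genotype also lay far apart for these genes. Larval replicate 2 minus replicate 1 was 1.502 in the mutant and 1.73 in wild type for grd-5, the groundhog gene. For the ground-like genes it was 1.70 in the mutant and 1.06 in wild type (grl-5), and 1.599 in the mutant and 0.76 in wild type (grl-7). For the patched-related genes it was 1.54 in the mutant and 1.64 in wild type (ptr-6), and 1.71 in the mutant and 1.30 in wild type (ptr-18). The list's rule used these same 4 arrays. With mutant 1 below wild-type 1, mutant 2 below wild-type 2 and mutant 2 above wild-type 1, replicate 2 has to be higher in both genotypes. Its being higher for 5 of 5 genes (36.3% of all probe sets) follows from these orders. The rule bears on them but did not fix that mutant 2 lay above wild-type 1. nep-1 met the same rule with replicate 2 lower in the mutant (-0.35). The choice of the genes also bears on the 4 of 5 (all but grl-7) with a gap of at least 1 in both genotypes (1.54% of probe sets). That count was made after the values were seen, and nothing is read from either count. The median of the 5 gaps was 1.599 in the mutant and 1.30 in wild type, beside 0.08 in the mutant and -0.04 in wild type over all probe sets. The mean level of the bioB spike-in controls was 7.72 on mutant and 7.81 on wild-type replicate 2, against 5.70 and 5.82 on replicate 1. The 3′ minus 5′ difference of the worm control probe sets was 1.14 on mutant and 0.83 on wild-type replicate 2, against 0.77 and 0.80 on replicate 1. The part of either in the replicate gap was not tested.

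**Figure D2:**
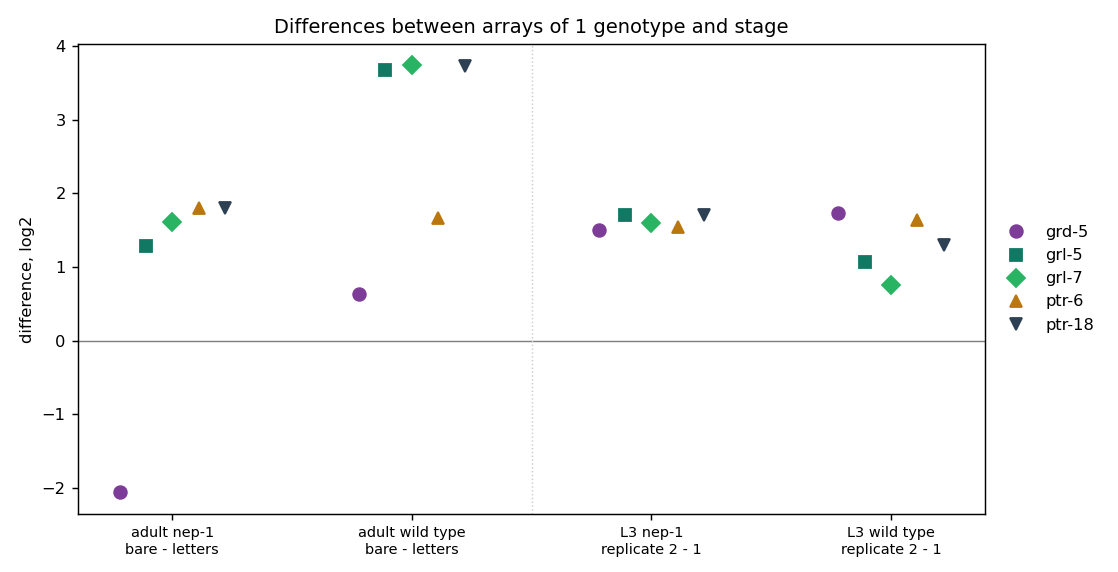
Differences on the log2 scale between arrays of the same genotype and stage: bare-named adult array minus the mean of the letter-named adult arrays (left), and larval replicate 2 minus replicate 1 (right), with 1 symbol per gene. All larval differences lie above 0, and in adult wild type grl-5, grl-7 and ptr-18 lie between 3.68 and 3.74.

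In adults, none of the 5 genes passed the test of mutant against wild type. The difference was -0.97 ± 0.69 for grd-5 (95% interval -2.54 to 0.61), -0.28 ± 0.99 for grl-5 (-2.54 to 1.98) and -0.29 ± 1.02 for grl-7 (-2.61 to 2.03). It was 0.12 ± 0.75 for ptr-6 (-1.58 to 1.82) and 0.04 ± 1.04 for ptr-18 (-2.35 to 2.42), all log2 ± SE from limma with n = 3 each and a Benjamini-Hochberg adjusted p of 1. Of the 5 genes, 0 passed the threshold of 0.05 and 0 had an unadjusted p under 0.05 in limma, where 0% and 0.306% of all probe sets did. With the pairs of the descriptions as a block, 95% intervals of the same differences were -2.23 to 0.30 for grd-5, -1.41 to 0.84 for grl-5, -1.33 to 0.75 for grl-7, -0.44 to 0.68 for ptr-6 and -0.89 to 0.96 for ptr-18, with limma adjusted p from 0.937 to 0.995. Adult mutant arrays all lay below adult wild-type arrays for 0 of the 5, and all above for 0 of the 5, where 1.95% and 1.52% of probe sets did.

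The adult pairs went in different directions. In the bare-named pair, mutant minus wild type was -2.77 for grd-5, -1.88 for grl-5, -1.70 for grl-7, 0.21 for ptr-6 and -1.25 for ptr-18. In the letter A pair it was -0.46 for grd-5, 0.60 for grl-5, 0.53 for grl-7, 0.66 for ptr-6 and 0.82 for ptr-18. In the letter B pair it was 0.33 for grd-5, 0.43 for grl-5, 0.30 for grl-7, -0.52 for ptr-6 and 0.53 for ptr-18. grl-5, grl-7 and ptr-18 were thus lower in the mutant in the bare-named pair and higher in both letter pairs. Without the bare-named pair, the adult differences were -0.07 ± 0.65 for grd-5, 0.52 ± 0.59 for grl-5, 0.42 ± 0.55 for grl-7, 0.07 ± 0.66 for ptr-6 and 0.68 ± 0.60 for ptr-18, each with an adjusted p of 1 in limma.

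The authors' deposited table called grd-5 decreased in 6 of 9 adult pairs and increased in 0, short of the 7 that the adult list asked for. For grl-5 and grl-7 the deposited calls were 3 decreased, 3 increased and 3 not changed. ptr-6 had 2 decreased and 2 increased calls and ptr-18 had 3 and 3. The decreased calls of grd-5 covered all 3 pairs with the bare-named mutant, with deposited log2 ratios of -2.1, -1.6 and -2.3 against wild-type 1, 2 and 3. Adult minus larval differences between these genotype effects were 0.05 for grd-5, 0.79 for grl-5, 0.29 for grl-7, 1.503 for ptr-6 and 1.08 for ptr-18, each with a limma adjusted p of 1, and are descriptions because they hold the larval contrast.

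**Figure D3:**
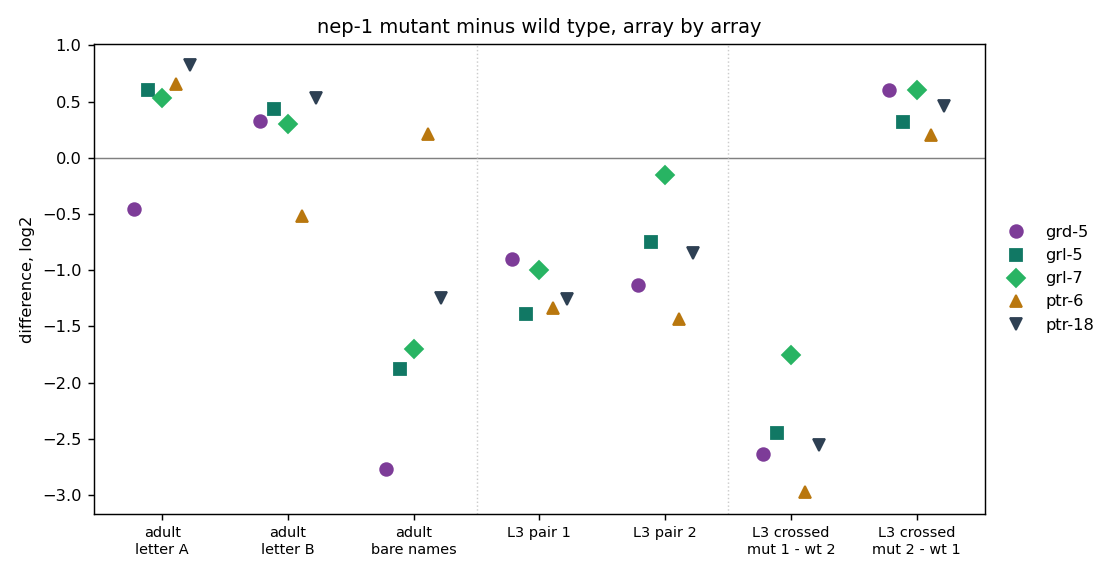
Mutant minus wild-type difference on the log2 scale for single array pairs, with adult pairs left, larval pairs in the middle and crossed larval pairs right, and 1 symbol per gene. All 5 genes lie below 0 in both larval pairs, and all 5 lie above 0 when larval mutant 2 is set against wild-type 1.

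The 2 bare-named adult arrays had higher levels of 4 of these genes than the other adults. The bare-named array minus the mean of the letter-named arrays of its genotype was 1.28 in the mutant and 3.68 in wild type for grl-5. For grl-7 it was 1.62 in the mutant and 3.74 in wild type. For the patched-related genes it was 1.81 in the mutant and 1.67 in wild type (ptr-6), and 1.81 in the mutant and 3.73 in wild type (ptr-18). The groundhog gene grd-5 went apart from the others, at -2.06 in the mutant and 0.64 in wild type. Both bare-named arrays lay above all 4 letter-named arrays for grl-5, grl-7, ptr-6 and ptr-18, that is 4 of 5, where 20.4% of probe sets did. The same 4 were called present on both bare-named arrays and absent on both letter-named adult wild-type arrays, a pattern of 4.18% of probe sets; both counts were chosen after the values were seen. On the bare-named arrays the 3′ minus 5′ difference of the worm controls was 1.45 (mutant) and 1.13 (wild type), against 0.735 to 0.907 on the letter-named arrays, and bioB levels were 7.20 and 7.16, against 7.84 to 8.18. The part of these in the gene differences was not tested.

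Between the stages, the ground-like genes grl-5 and grl-7 were called lower in adults than in L3 larvae. This comparison holds the larval arrays that chose the genes. grl-5 was lower by 2.90 on the log2 scale (difference -2.90 ± 0.78, limma adjusted p = 0.0211) and grl-7 had a difference of -3.23 ± 0.80 (limma adjusted p = 0.0149), with 6 adult and 4 larval arrays. The fit took all arrays as independent, although deviations from group means correlated at 0.61 to 0.65 within the adult description pairs. The SE and adjusted p of stage differences over both genotypes, here and below, may therefore be too small. The patched-related genes did not pass the threshold in this fit, with -2.28 ± 0.83 for ptr-18 (limma adjusted p = 0.061) and -0.70 ± 0.59 for ptr-6 (limma adjusted p = 0.379). The call of ptr-18 depended on the processing. It passed in 6 alternatives given below, such as centring on array medians (limma adjusted p = 0.0435). It did not pass without adult mutant 2 (limma adjusted p = 0.112). For ptr-6 the difference was -1.46 ± 0.56 with the scaled signals (limma adjusted p = 0.107) and -1.18 ± 0.64 on its other probe set (limma adjusted p = 0.182). grd-5 had a difference of -0.05 ± 0.55 (95% interval -1.30 to 1.19, limma adjusted p = 0.947). The 2 of 5 called lower in adults stand beside 15.9% of all probe sets. All 5 had been asked to be present on larval wild-type arrays by the list's rule. That choice bears on the stage p-values and on this count, which are therefore descriptions. grl-5 and grl-7 each lost the call without larval mutant 2 (limma adjusted p = 0.0793 and 0.0592) and without larval wild-type 2 (limma adjusted p = 0.0738 and 0.0537), the array with the higher level of its genotype.

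Within a genotype the direction was the same for both ground-like genes, but neither passed. In the mutant, adult minus larval was -2.50 ± 1.11 for grl-5 (limma adjusted p = 0.156) and -3.09 ± 1.14 for grl-7 (limma adjusted p = 0.0978). In wild type it was -3.29 ± 1.11 for grl-5 (limma adjusted p = 0.077) and -3.37 ± 1.14 for grl-7 (limma adjusted p = 0.0768). The list's rule asked for presence on those larval wild-type arrays and used the larval mutant arrays too. The differences within a genotype are therefore descriptions. The 4 larval arrays lay above all 6 adult arrays for 0 of the 5 genes, where 13.3% of probe sets did. For grl-5, grl-7 and ptr-18 the bare-named adult wild-type array lay within the larval range. They lay above the 4 letter-named adult arrays for grl-5, grl-7 and ptr-18, that is 3 of 5, where 24.5% did.

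Without the bare-named pair the stage differences of 4 genes were larger. This had to follow, because the arrays left out held the highest adult levels of these 4 genes. The fit was also chosen with earlier results known, so its values are descriptions and nothing is read from their smaller p. The differences were -3.72 ± 0.42 for grl-5 (limma adjusted p = 0.000383), -4.12 ± 0.39 for grl-7 (limma adjusted p = 0.000183) and -3.20 ± 0.42 for ptr-18 (limma adjusted p = 0.000829). ptr-6 had -1.28 ± 0.46 (limma adjusted p = 0.0563), with its other probe set at -1.92 ± 0.35 (limma adjusted p = 0.00387), and grd-5 had 0.18 ± 0.46 (limma adjusted p = 0.759). These 3 of 5 called genes stand beside 22.7% of probe sets called lower in adults in the same fit. ptr-6 was absent on every adult array left, and grl-5, grl-7 and ptr-18 on both adult wild-type arrays left, so background limits the size of their differences. By detection, 4 of 5 genes were present on all 4 larval arrays (all but ptr-6; 44.2% of probe sets), but the list's rule had fixed both larval wild-type calls, so nothing is read from that count. The gene grd-5 was the 1 of 5 present on all 6 adult arrays, where 43.8% of probe sets were.

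**Figure D4:**
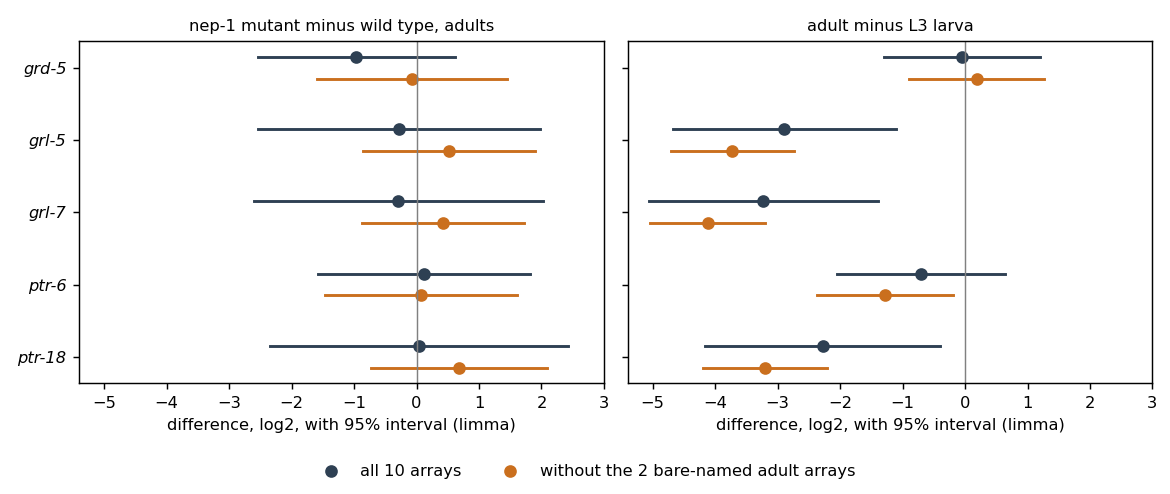
Adult mutant minus wild-type difference (left) and adult minus L3 larva difference (right) for the 5 genes on the log2 scale, with 95% limma intervals (not adjusted for the number of probe sets), for all 10 arrays and without the 2 bare-named adult arrays. All adult genotype intervals cross 0, and the stage intervals of grl-5, grl-7 and ptr-18 lie below 0 in both fits. Both fits took the arrays as independent.

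The 5 genes varied widely among arrays of a group. The residual SD around the 4 group means was 0.99 for grd-5, 1.44 for grl-5, 1.47 for grl-7, 1.07 for ptr-6 and 1.52 for ptr-18 on the log2 scale, against a median of 0.35 over all probe sets. Their percentiles among probe sets ran from 95.02 for grd-5 to 98.9 for ptr-18. The larval arrays that the list's rule used enter these SDs, and the choice of the genes bears on their replicate gaps. The percentiles are therefore descriptions.

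The other hedgehog-related and patched-related genes could not be followed. Of 61 hedgehog-related ligand genes and 31 patched-related genes listed, the deposited lists named only these 3 and 2. Of 24 genes listed for moulting and the apical matrix, 4 could be named (dpy-5, a cuticle collagen; lpr-7, a lipocalin-related protein; mlt-8, a moulting gene; nas-6, an astacin metalloprotease), all chosen by the same larval rule. Their median adult minus larval difference was -2.56, beside -0.06 over all probe sets. In adults 3 of 4 (all but nas-6) were called lower, where 15.9% of probe sets were. Without the bare-named pair it was 4 of 4, where 22.7% were. The larval rule bears on both counts, and the pair left out held the highest adult levels of these 4 genes. Nothing is read from either count. Between adult genotypes the median mutant minus wild-type difference of the 4 genes was -0.01 and 0 of 4 passed. The bare-named adult arrays lay above all letter-named ones for 4 of 4 (20.4% of probe sets). Of 13 cuticle collagens that could be named (dpy-5 among them), 12 met the larval rule, which asked for presence in wild-type larvae. Of the 13, 6 were called lower in adults, beside 15.9% of probe sets. Without the bare-named pair 10 were called lower, beside 22.7%, and 1 was called higher. The larval rule bears on these counts too. The median stage difference of the 13 was -1.88. Between adult genotypes 0 of 13 passed at a median of -0.45, and for 7 the bare-named adult arrays lay above all letter-named ones (20.4% of probe sets).

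Among 140 other named genes, the pattern over the 10 arrays most like the mean of the 5 was that of Y53F4B.27 (Pearson r = 0.985), followed by gtnt-16 (0.975), C38C6.3 (0.973), H23N18.5 (0.972), C50D2.1 (0.971) and F46C8.8 (0.971). Within the 6 adult arrays the same genes had r of 0.991, 0.988, 0.997, 0.968, 0.960 and 0.956 in that order. Each of these genes was higher on both bare-named adult arrays than on the letter-named ones, so the bare-named pair weighs heavily in these r. Y53F4B.27 had 6.68 (mutant) and 8.32 (wild type) on that pair, against 4.59 to 5.35 on the letter-named arrays. The closest gene to grl-7 was abu-13 (r = 0.995), to grl-5 and ptr-18 Y53F4B.27 (0.994 and 0.986), to ptr-6 F33A8.7 (0.926) and to grd-5 gst-10, a glutathione S-transferase (0.862). gst-10 shared the low value of grd-5 on the bare-named adult mutant, with 6.42 there against 8.44 or more on the other 9 arrays. All points of these correlations share the same 10 arrays and nearly all these genes were chosen on the same larval ones, so the values are descriptions.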

How the data were processed

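Total RNA, labelled with biotin by a one-cycle 3′ protocol, was hybridised to 10 one-colour Affymetrix arrays, per the labels' protocols. The log2 values were deposited by the authors. Per the submitters' processing notes they were made with RMA (version not given). Per the file headers, the authors' comparison tables give each array's scaled signal (target 300), detection call and detection p-value, and other columns give change calls and log2 ratios per pair. Another 30 columns of per-array values were not used.

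Genes were named from the authors' lists through a RefSeq gene table of assembly WBcel235 (152 of 196 listed probe sets had 1 named gene). No coordinates or sequences are given because the files name no genome build. Suffix _s_at marks probe sets that match several transcripts. limma 3.58.1 in R 4.3.3 fitted 4 group means to the log2 values of 22548 probe sets (77 controls left out, no filter) on 10 arrays, with 6 residual and 2.57 prior degrees of freedom. Tests were two-sided, with Benjamini-Hochberg adjustment over all probe sets per contrast and a threshold of 0.05. The number of arrays limits the precision. Tables were read with Python 3.11.15. The fit was tested on simulated data with independent arrays and shifts in adult mutants only. That simulation covers neither the stage contrast nor correlation within pairs of arrays.

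The genes described, the gene lists, the counts and the tests were chosen with earlier results of these data known. Named were the 5 genes, nep-1, list members, and the 6 genes most like the mean of the 5 plus the best for each. Alternatives were quantile normalisation, centring on array medians, the 60% of probe sets with the highest means, a trended robust variance, adult arrays alone, replicate and pair blocks, scaled signals (log2 after adding 16), leaving out each array, and leaving out the bare-named adult pair. Deviations from group means correlated at -0.54, -0.22 and -0.65 between adult arrays of the same title number, so those numbers do not pair the adults, and at 0.61 to 0.65 within the pairs of the descriptions. The correlation was 0.56 for larval numbers, where the design forces the same value for both pairs.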

Additional observations from a re-analysis of the deposited data

How the results depend on the processing

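Beside leaving out single arrays, 125 values were recomputed under the alternatives, of which 6 changed sign and 6 passed the threshold. Among the other 113, adult genotype and stage differences kept their direction and side of the threshold. Larval genotype differences, which were not tested, kept their direction and moved by less than the SD within larval groups. Counts stayed within 1.5 times the reported one, and the genes called between stages numbered 3 in all 6 alternatives, against 2. Without the bare-named adult pair, the stage difference of grd-5 was 0.18 and the adult genotype differences of grl-5 and grl-7 were 0.52 and 0.42. The adult difference of ptr-18, close to 0, was -0.0071 after quantile normalisation, -0.0305 after centring on medians and -0.0306 with scaled signals. The stage difference of ptr-18 passed with -2.57 after quantile normalisation, -2.34 after centring, -2.28 in the upper 60% of probe sets and with a trended robust variance, and -3.09 with scaled signals. It also passed with -3.20 without the bare-named pair, which held its highest adult levels. With scaled signals the stage difference of grd-5 was -0.61 (limma adjusted p = 0.473). The cause was not tested. Members called between stages ranged from 0 (without larval mutant 2 or larval wild-type 2) to 3 when single arrays were left out, and in adults stayed at 0.

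Leaving out single arrays, larval genotype differences ranged from -1.88 to -0.15 for grd-5, -1.92 to -0.21 for grl-5, -1.38 to 0.22 for grl-7, -2.21 to -0.57 for ptr-6 and -1.90 to -0.19 for ptr-18. Adult ones ranged from -1.39 to -0.28, -0.996 to 0.95, -1.04 to 0.96, -0.49 to 0.67 and -0.65 to 1.28 in that order of genes. Stage differences ranged from -0.49 to 0.38, -3.51 to -2.47, -3.85 to -2.83, -1.11 to -0.29 and -2.90 to -1.85. Where an arm kept 1 array, it was assumed to vary like the other groups.

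With the replicate block of title numbers 0 of 5 genes passed in adults (grd-5 -0.97 ± 0.47, limma adjusted p = 1), and with the block of description pairs 0 of 5 (grd-5 -0.97 ± 0.53, limma adjusted p = 0.937), while probe sets with an unadjusted p under 0.05 numbered 76 and 623, against 69 without a block. The blocks changed no call. Between stages 4459 probe sets were called higher and 3574 lower in adults, against 3301 and 4032 after quantile normalisation and 3793 and 4210 after centring, and 3660 were called with scaled signals against 8033. Low levels near background limit ptr-6 in particular.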
